A study of Mus musculus with 20 samples.

Results

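Transcripts of skeletal muscle were followed in tumors that formed over 4 weeks under the skin of C57/BL6 mice from HEPA1-6, a hepatoma line of mouse origin. A set of 40 genes of the contractile apparatus and energy supply of skeletal muscle was taken by symbol. Of these, 35 had a row among the 14633 genes of the deposited table, and Mybph, Ttn, Ryr1, Cacna1s and Ampd1 were not analysed here. Tumors had received anti-CXCL10 antibody plus GSK343 (n = 5 libraries), anti-CXCL10 antibody (n = 5), a control antibody plus GSK343 (n = 5) or the control antibody (n = 4, replicates 1, 2, 3 and 5), all in the same host strain with the same tumor line. CXCL10 is a chemokine that attracts T cells, and GSK343 inhibits EZH2, the methyltransferase of Polycomb repressive complex 2. Per the series' title, the question was how tumor transcripts differ after inhibition of EZH2. The design text speaks of 3 biological replicates and the labels number up to 5, without naming animals. The p-values reflect variation among libraries that may be technical in part. Replicate 4 of the control antibody was not analysed here.

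Muscle fibers shorten when thick filaments of myosin pull on thin filaments of actin, tropomyosin and troponin, which are anchored at the Z-disc. Calcium released from the sarcoplasmic reticulum binds troponin C and permits the contact, and a calcium pump returns it to the store. Fast fibers and slow fibers use different genes for many of these proteins, and creatine kinase, glycogen phosphorylase, enolase and myoglobin supply energy and oxygen. Hepatoma cells are not muscle, whereas mouse skin lies on a thin sheet of fast striated muscle, the panniculus carnosus. In whole tumors, fewer cells of a type and less RNA per cell cannot be told apart.

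Promoters were examined because most members moved together from tumor to tumor, as described further on. Windows of 250 bases before the transcript start were taken from RefSeq (build GRCm38.p6), and 25 of the 35 members had a window. Muscle regulators are known to bind the E-box (CANNTG), the MEF2 site and the CArG box, and matches were sought on both strands. At least 1 E-box lay in 20 of the 25 member windows (80%), against 57.3% of 9501 windows of listed genes. A MEF2 site matched in 4 of 25 windows (16%), against 1.13% of all windows, and a CArG box in 3 (12%), against 1.15%. A match describes letters only. The 4 windows below are those of Ckm, the gene used as the index of muscle content, of Acta1 and Myh4, which moved with it, and of the slow troponin gene Tnnc1, whose slope on Ckm did not pass the test. They lie at chr7:19410844-19411093 (plus strand), chr8:123894776-123895025 (minus), chr11:67237562-67237811 (plus) and chr14:31208062-31208311 (plus). The RefSeq start lay 217 bases from the deposited gene end for Myh4 and 39 bases from it for Acta1. Capitals mark E-box, MEF2 and CArG matches, and sequences run 5′ to 3′ on the strand of the gene.
Ckm: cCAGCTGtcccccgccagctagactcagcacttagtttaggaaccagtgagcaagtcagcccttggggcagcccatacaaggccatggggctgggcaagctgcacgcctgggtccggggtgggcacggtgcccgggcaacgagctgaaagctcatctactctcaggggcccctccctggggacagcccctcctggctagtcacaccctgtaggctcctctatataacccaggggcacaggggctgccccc
Acta1: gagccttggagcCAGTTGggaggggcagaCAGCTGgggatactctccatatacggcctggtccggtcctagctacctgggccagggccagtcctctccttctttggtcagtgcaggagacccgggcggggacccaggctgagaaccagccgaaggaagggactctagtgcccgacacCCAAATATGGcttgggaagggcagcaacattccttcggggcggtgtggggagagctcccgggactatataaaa
Myh4: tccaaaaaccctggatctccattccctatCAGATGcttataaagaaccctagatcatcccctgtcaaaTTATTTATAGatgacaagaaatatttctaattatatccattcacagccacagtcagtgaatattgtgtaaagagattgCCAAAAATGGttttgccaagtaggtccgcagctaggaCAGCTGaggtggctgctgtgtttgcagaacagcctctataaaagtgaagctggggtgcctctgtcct
Tnnc1: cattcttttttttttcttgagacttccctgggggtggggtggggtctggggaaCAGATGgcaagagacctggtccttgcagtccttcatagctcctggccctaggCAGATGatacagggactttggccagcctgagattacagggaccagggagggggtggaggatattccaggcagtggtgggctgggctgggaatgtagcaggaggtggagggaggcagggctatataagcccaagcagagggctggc
The Ckm window held 1 E-box, at its far end (positions -249 to -244 from the start). The Acta1 window held 2 E-boxes and a CArG box (CCAAATATGG). The Myh4 window held matches to all 3 motifs, and the Tnnc1 window held 2 E-boxes only. Windows of Ckm and of the members whose slope on it passed numbered 21. Of these, 16 held an E-box, 4 a MEF2 site and 3 a CArG box. Eno3, Tnnc1, Tnni1 and Tnnt1, whose slopes did not pass, each had at least 1 E-box and neither other motif. With only 4 such windows, and an E-box in 57.3% of all windows, these counts cannot show whether motifs set apart the members that moved with Ckm.

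The 35 members were minor transcripts of the tumors, and their abundance differed more between libraries than between groups. FPKM (fragments per kilobase of gene and per unit of sequencing depth) is scaled by gene length, so levels can be compared between genes. The members took 0.0201%, 0.0251%, 0.0410%, 0.0425% and 0.0217% of all FPKM in the 5 libraries of anti-CXCL10 plus GSK343. They took 0.0364%, 0.0150%, 0.0692%, 0.0839% and 0.0172% with anti-CXCL10. The shares were 0.0266%, 0.0352%, 0.145%, 0.587% and 0.134% with control antibody plus GSK343, against 0.0283%, 0.0295%, 0.0246% and 0.0443% with control antibody. Replicates 3, 4 and 5 of control antibody plus GSK343 therefore lay above every other library, whereas replicates 1 and 2 of the same group lay within the range of the other groups. Replicate 4 held the highest value of 32 of the 35 members. Tnni1, Tnnt1 and Tnnc1, the slow-fiber troponin genes, were highest in replicate 1 of control antibody instead.

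Exact zeros occurred among the low members and need care. Among all genes, 13 that averaged over 20 FPKM were listed at 0 in at least 1 library, so a 0 can be a failed estimate. Members listed at 0 numbered 0 to 8 in a library of anti-CXCL10 plus GSK343, 0 to 9 with anti-CXCL10, 0 to 1 with control antibody plus GSK343 and 0 to 1 with control antibody. Of the 35 members, 33 reached 1 FPKM in at least 5 libraries and were tested. Neb and Trdn reached it in only 4 libraries, replicate 4 of anti-CXCL10 and replicates 3, 4 and 5 of control antibody plus GSK343. A member that is low elsewhere passes this filter through the libraries where it is high, so counts over the tested members are descriptions and not evidence on their own.

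**Figure D1:**
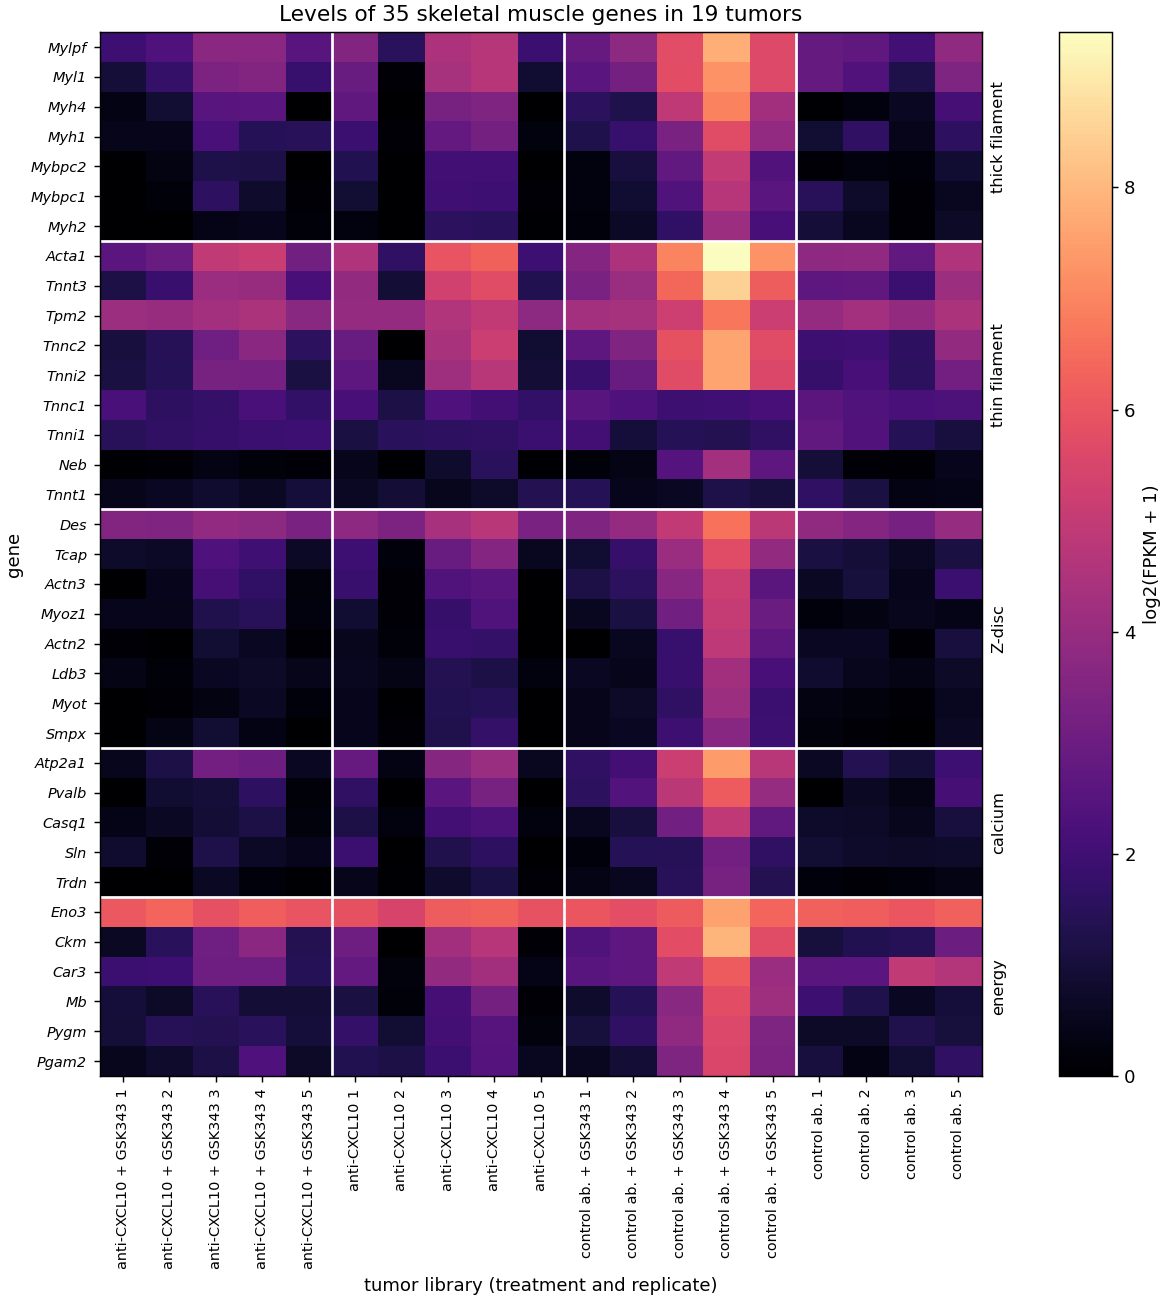
Levels of the 35 members as log2(FPKM + 1) (color scale) in 19 tumor libraries (columns, by treatment and replicate), with rows grouped by role. Replicates 3, 4 and 5 of control antibody plus GSK343 are brighter than the other columns in most rows, and replicates 2 and 5 of anti-CXCL10 are dark. The rows of Eno3, Tpm2, Tnnc1, Tnni1 and Tnnt1 vary least.

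Among thick filament genes, 7 of 8 had a row. Mylpf, which encodes the fast regulatory light chain of myosin, had 2.89, 3.97, 12.2, 12.2 and 4.82 FPKM with anti-CXCL10 plus GSK343, 10.6, 1.89, 21.5, 24.9 and 2.69 with anti-CXCL10, 6.42, 12.7, 52.5, 223 and 49.1 with control antibody plus GSK343, and 6.24, 5.71, 3.1 and 13.4 with control antibody. The alkali light chain gene Myl1 had 0.959, 2.34, 9.47, 10.7 and 2.53 FPKM with anti-CXCL10 plus GSK343, 6.76, 0.0593, 19.4, 25.2 and 0.803 with anti-CXCL10, 5.04, 8.25, 54.4, 150 and 48.6 with control antibody plus GSK343, and 6.2, 4.28, 1.36 and 9.68 with control antibody. For both light chains the groups overlapped, and the 3 highest libraries all belonged to control antibody plus GSK343.

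The 3 adult fast myosin heavy chain genes lie side by side on chromosome 11 (build GRCm38, plus strand), Myh2 at 67171027 to 67197517, Myh1 at 67200052 to 67224575 and Myh4 at 67238029 to 67260446. Myh4, the IIb chain of the fastest fibers, had 0.262, 0.857, 4.87, 4.98 and 0.00885 FPKM with anti-CXCL10 plus GSK343, 5.62, 0, 8.76, 10.1 and 0 with anti-CXCL10, 1.95, 1.42, 28.7, 123 and 18.1 with control antibody plus GSK343, and 0.0392, 0.21, 0.509 and 3.28 with control antibody. Myh1, the IIx chain, had 0.372, 0.391, 3.71, 1.69 and 1.77 FPKM with anti-CXCL10 plus GSK343, 2.74, 0.0845, 6.07, 8.32 and 0.207 with anti-CXCL10, 1.4, 2.52, 8.91, 51.7 and 13.7 with control antibody plus GSK343, and 0.862, 2.14, 0.365 and 2.02 with control antibody. Myh2, the IIa chain, had 0, 0, 0.346, 0.421 and 0.134 FPKM with anti-CXCL10 plus GSK343, 0.219, 0.0141, 1.93, 1.91 and 0.0304 with anti-CXCL10, 0.16, 0.62, 2.18, 16.4 and 3.46 with control antibody plus GSK343, and 0.981, 0.482, 0.0814 and 0.652 with control antibody. Groups overlapped for each of the 3 chains.

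The composition of the heavy chains was alike in the libraries rich in them. Myh4 made up 72.1%, 64.3% and 51.3% of the 3 chains in replicates 3, 4 and 5 of control antibody plus GSK343, Myh1 made up 22.4%, 27.1% and 38.9%, and Myh2 made up 5.48%, 8.61% and 9.79%. In replicates 1, 3 and 4 of anti-CXCL10, Myh4 held 65.5%, 52.3% and 49.6%. Some libraries with little of the 3 chains had another composition. Myh4 held 0.463% in replicate 5 of anti-CXCL10 plus GSK343 (sum 1.91 FPKM), 0% in replicates 2 and 5 of anti-CXCL10 (0.0986 and 0.237 FPKM), and 2.08% and 7.42% in replicates 1 and 2 of control antibody (1.88 and 2.83 FPKM). Myh2 was the largest part, 52.1%, in replicate 1 of control antibody, and Myh1 in the other 4 of these libraries. Shares from such low sums carry an unknown counting error, since the depth is unknown. The myosin-binding proteins C, which lie along the thick filament, ranged from 0 to 25.1 FPKM (Mybpc1, slow type) and from 0 to 30.9 FPKM (Mybpc2, fast type), both highest in replicate 4 of control antibody plus GSK343.

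All 9 thin filament genes had a row. Acta1, the actin of adult skeletal muscle (minus strand of chromosome 8, 123891767 to 123894736), had 5.01, 6.81, 29.5, 34.1 and 7.74 FPKM with anti-CXCL10 plus GSK343, 22.5, 2.11, 61.5, 77.3 and 2.95 with anti-CXCL10, 10.9, 21.7, 127, 673 and 151 with control antibody plus GSK343, and 12.8, 13.4, 5.77 and 22.7 with control antibody. It was never listed at 0, and its groups overlapped. Neb, which encodes nebulin, the giant protein along the thin filament, was too low for the test and ranged from 0.0263 to 18.5 FPKM. Tpm2, the beta chain of tropomyosin, ranged only from 11.9 to 105 FPKM, a ratio of 8.82, with a median of 18.3.

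The troponin complex has a calcium-binding subunit, an inhibitory subunit and a tropomyosin-binding subunit, each with a fast-fiber and a slow-fiber gene. Among the fast genes, Tnnc2 had 1.13, 1.72, 7.51, 12.2 and 1.92 FPKM with anti-CXCL10 plus GSK343, 6.75, 0, 20.4, 35.2 and 0.837 with anti-CXCL10, 5.51, 9.97, 57.7, 197 and 51.9 with control antibody plus GSK343, and 2.81, 3, 2.05 and 13.9 with control antibody. Tnni2 had 1.15, 1.67, 8.83, 8.54 and 1.19 FPKM with anti-CXCL10 plus GSK343, 5.52, 0.492, 16.8, 26.1 and 0.895 with anti-CXCL10, 2.58, 6.75, 51.6, 193 and 46.5 with control antibody plus GSK343, and 2.47, 3.45, 1.94 and 8.06 with control antibody. Tnnt3 had 1.29, 2.66, 16.1, 15.1 and 3.41 FPKM with anti-CXCL10 plus GSK343, 13.9, 0.904, 38.1, 50.7 and 1.55 with anti-CXCL10, 9.31, 15.5, 83, 356 and 71 with control antibody plus GSK343, and 5.45, 5.64, 2.73 and 16.4 with control antibody. The 3 fast genes shared with Acta1 the highest library, replicate 4 of control antibody plus GSK343, and the lowest, replicate 2 of anti-CXCL10.

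The slow partners stayed within a narrow band. Tnnc1, also the troponin C of heart, had 3.55, 2.03, 2.31, 3.69 and 2.25 FPKM with anti-CXCL10 plus GSK343, 3.41, 1.29, 4.03, 3.25 and 2.3 with anti-CXCL10, 4.85, 3.98, 2.81, 3.01 and 3.47 with control antibody plus GSK343, and 5.09, 4.15, 3.52 and 3.91 with control antibody. Tnni1 had 1.79, 2.09, 2.43, 2.72 and 2.94 FPKM with anti-CXCL10 plus GSK343, 1.16, 1.87, 1.99, 2.07 and 2.7 with anti-CXCL10, 3.16, 1.01, 1.66, 1.6 and 2.14 with control antibody plus GSK343, and 5.8, 4.32, 1.69 and 1.12 with control antibody. Tnnt1 had 0.385, 0.515, 0.794, 0.548 and 0.989 FPKM with anti-CXCL10 plus GSK343, 0.576, 0.934, 0.455, 0.676 and 1.57 with anti-CXCL10, 1.68, 0.423, 0.535, 1.36 and 1.14 with control antibody plus GSK343, and 2.12, 1.17, 0.287 and 0.33 with control antibody. The ratio of the highest to the lowest library was 3.94, 5.73 and 7.4 for Tnnc1, Tnni1 and Tnnt1, whereas it was 391 for Tnni2 and 394 for Tnnt3. The fast gene accordingly made up between 0% and 98.5% of the troponin C pair, 20.8% to 99.2% of the troponin I pair and 49.2% to 99.6% of the troponin T pair. Tnnc2 overlaps Ube2c and Tnnc1 overlaps Nisch in the table, so fragments of these pairs could be shared.

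**Figure D2:**
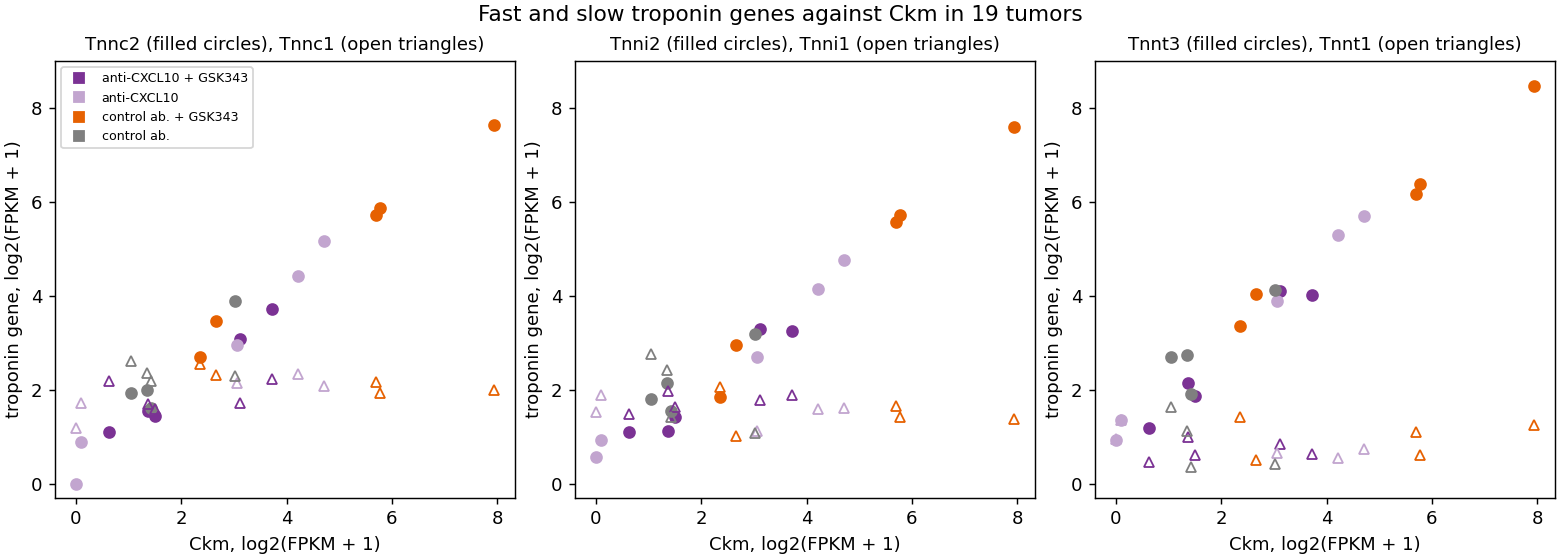
Fast (filled circles) and slow (open triangles) troponin genes against Ckm in 19 tumor libraries, all as log2(FPKM + 1), with groups by color. The fast genes climb with Ckm up to replicate 4 of control antibody plus GSK343 (Ckm 243 FPKM), whereas the slow genes stay between 0.287 and 5.8 FPKM at every Ckm level.

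At the Z-disc, 8 of 9 genes had a row. Des, which encodes desmin, the intermediate filament around the Z-disc that smooth muscle and pericytes also make, had 10.7, 10.2, 13.5, 12.4 and 9.05 FPKM with anti-CXCL10 plus GSK343, 13, 9.53, 19.9, 26.3 and 8.94 with anti-CXCL10, 9.97, 14.5, 30.5, 96.7 and 27.7 with control antibody plus GSK343, and 13.1, 11.1, 8.55 and 14.7 with control antibody. Tcap, the titin cap telethonin, had 0.696, 0.605, 3.97, 3.03 and 0.59 FPKM with anti-CXCL10 plus GSK343, 2.95, 0.156, 6.78, 10.8 and 0.502 with anti-CXCL10, 0.797, 2.46, 16.2, 51.1 and 14.1 with control antibody plus GSK343, and 1.17, 0.971, 0.545 and 1.15 with control antibody. Desmin thus had a floor of 8.55 FPKM in all libraries, and Tcap did not. Actn3, the alpha-actinin of fast fibers, ranged from 0 to 34.6 FPKM, and Actn2, its partner in all fibers, from 0 to 28 FPKM. Myoz1 (0 to 32.2), Ldb3 (0.125 to 18.1), Myot (0 to 16.6) and Smpx (0 to 11.6 FPKM) had medians between 0.358 and 0.532 FPKM and were all highest in replicate 4 of control antibody plus GSK343.

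Of the calcium handling genes 5 of 7 had a row. Atp2a1, the fast-fiber calcium pump SERCA, had 0.439, 1.26, 7.95, 7.25 and 0.516 FPKM with anti-CXCL10 plus GSK343, 6.37, 0.264, 11.4, 15.6 and 0.475 with anti-CXCL10, 2.11, 3.16, 35.2, 171 and 25.8 with control antibody plus GSK343, and 0.544, 1.59, 0.984 and 2.92 with control antibody. Pvalb, the cytosolic calcium buffer parvalbumin (minus strand of chromosome 15, 78191114 to 78206400), had 0, 0.817, 0.985, 2.02 and 0.12 FPKM with anti-CXCL10 plus GSK343, 2.1, 0, 5.02, 8.8 and 0 with anti-CXCL10, 1.97, 4.43, 27.7, 69.6 and 14.8 with control antibody plus GSK343, and 0, 0.565, 0.307 and 3.37 with control antibody. The highest Pvalb value in control antibody lay between replicates 1 and 2 of control antibody plus GSK343, so these groups overlapped. Casq1, the calcium store protein calsequestrin, ranged from 0.19 to 28.5 FPKM. Sln, which encodes the pump inhibitor sarcolipin, ranged from 0 to 7.92 FPKM, and Trdn, triadin of the release complex, from 0 to 8.66 FPKM. Atp2a1 overlaps Rabep2 in the table.

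Energy genes had a row for 6 of 7 members. Ckm, the muscle creatine kinase (plus strand of chromosome 7, 19411094 to 19421583), had 0.559, 1.84, 7.64, 12.3 and 1.59 FPKM with anti-CXCL10 plus GSK343, 7.29, 0, 17.7, 25.2 and 0.0678 with anti-CXCL10, 4.14, 5.33, 53.7, 243 and 51.1 with control antibody plus GSK343, and 1.06, 1.54, 1.7 and 7.11 with control antibody. Eno3, the muscle enolase, had 67.1, 80.7, 56.3, 74.2 and 60.9 FPKM with anti-CXCL10 plus GSK343, 58.4, 42.8, 71.7, 78.5 and 60.4 with anti-CXCL10, 63, 55.3, 69.1, 188 and 82.6 with control antibody plus GSK343, and 75, 73.5, 62.3 and 75.2 with control antibody. Eno3 had the highest mean of the 35 members (73.5 FPKM) but was nearly level across libraries outside replicate 4 of control antibody plus GSK343. Together Eno3, Des and Tpm2 made up from 11.5% of the member sum in that library to 83.3% in replicate 2 of anti-CXCL10. Mb (myoglobin, which overlaps Apol6), Pygm (muscle glycogen phosphorylase) and Pgam2 (muscle phosphoglycerate mutase) ranged up to 53.9, 47.2 and 45.2 FPKM from medians of 1.18, 1.61 and 1.28.

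Car3, carbonic anhydrase 3, is made by slow muscle and fat cells, among other tissues. Car3 had 2.68, 2.93, 7.39, 7.38 and 1.69 FPKM with anti-CXCL10 plus GSK343, 6.01, 0.167, 14.2, 17.9 and 0.333 with anti-CXCL10, 4.83, 5.5, 30, 69.5 and 16.2 with control antibody plus GSK343, and 5.24, 4.95, 29.6 and 24.2 with control antibody. Replicates 3 and 5 of control antibody, with 1.7 and 7.11 FPKM of Ckm, thus had the highest Car3 values after replicates 4 and 3 of control antibody plus GSK343. The adipocyte gene Cfd (adipsin), chosen after its values were seen, had its 2 highest values, 39.7 and 28.6 FPKM, in the same libraries. Fabp4 and Lipe, also on the fat cell list, were highest in replicate 3 of control antibody. Other genes of that list peaked elsewhere: Cebpa, Adipor2, Pparg and Pnpla2 with anti-CXCL10 alone, and Gpd1 in replicate 4 of control antibody plus GSK343. Of 20 fat cell genes listed, 9 had a row, Car3 included. Adipoq, Plin1, Cidec, Retn and Lep were among those not analysed here. The other 8 with a row, Cfd among them, summed to 156 to 186 FPKM with anti-CXCL10 plus GSK343 and 151 to 188 with anti-CXCL10. The sums were 125 to 180 with control antibody plus GSK343 and 159 to 274 with control antibody. The part of fat cells in the Car3 values was not tested.

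**Figure D3:**
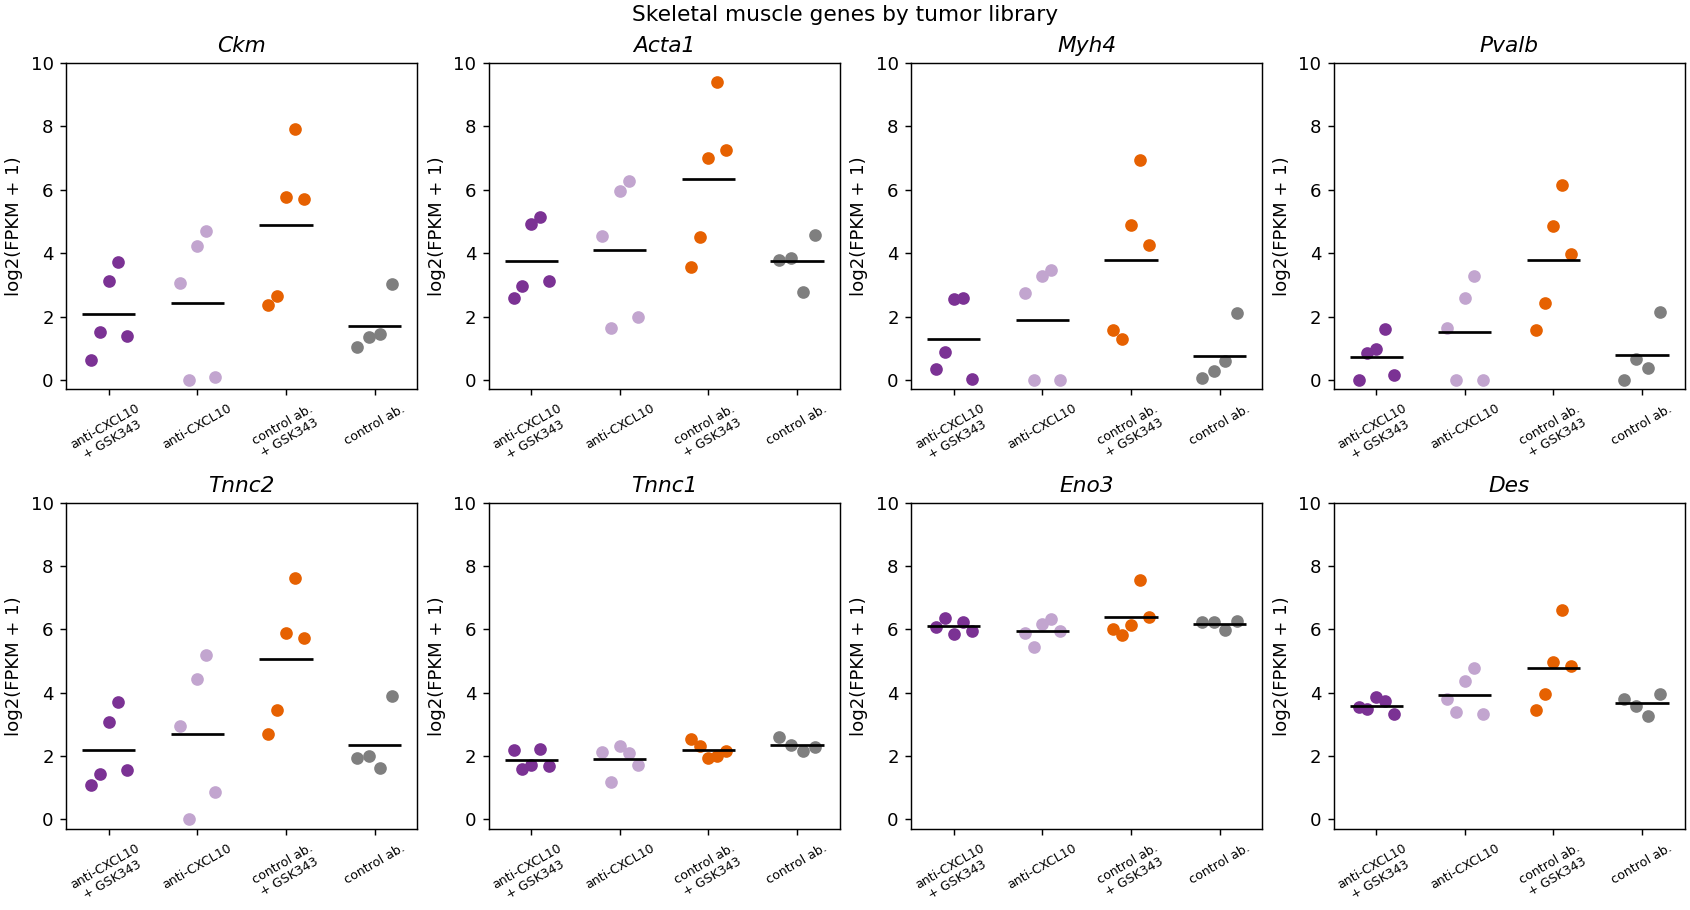
Levels of 8 members as log2(FPKM + 1) by library (points), with the mean of each treatment group as a line. Ckm, Acta1, Myh4, Pvalb and Tnnc2 spread over several log2 units within groups and overlap between groups, whereas Tnnc1, Eno3 and Des vary less, apart from replicate 4 of control antibody plus GSK343 for Eno3 and Des.

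With control antibody, GSK343 was associated with a higher level of Pvalb and of no other tested member at an adjusted p under 0.05. Pvalb rose by 3.01 ± 0.84 on the log2(FPKM + 1) scale (SE, 95% interval 1.24 to 4.77, limma, adjusted p = 0.0437 over 14385 genes). Thus 1 of 33 tested members was higher and 0 lower, against 4.36% of all tested genes higher and 1.11% lower. The share of members called higher was below that of all genes, so the count is not read as a result about the members. Pvalb was listed at 0 in replicate 1 of control antibody, which can be a failed estimate. At an unadjusted p under 0.05, 24 of 33 members were higher, against 10.7% of all genes. The log2 change was positive for 31 members and ran from -0.42 (Tnni1) to 3.18 (Ckm), with a median of 1.81 against -0.03 over all tested genes. By role, the median change was 2.05 for the 7 thick filament genes, 1.78 for 8 thin filament genes, 1.47 for 8 Z-disc genes, 2.34 for 4 calcium genes and 1.87 for 6 energy genes. Changes of low genes, among them most Z-disc genes, are flattened by the added 1, and the thin filament genes include the slow troponins. Differences between roles are therefore not read as results. Ckm itself differed by 3.18 ± 1.16 (limma, adjusted p = 0.135), Acta1 by 2.61 ± 1.12 (0.211) and Myh4 by 3.03 ± 1.07 (0.119), none of which passed. Myoz1 alone had groups that did not overlap, higher in all 5 libraries of control antibody plus GSK343, against 4.05% of all tested genes higher and 3.54% lower without overlap, and it too did not pass (2.21 ± 0.69, limma, adjusted p = 0.0725).

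These counts moved with single libraries. Without replicate 1 of control antibody plus GSK343, a library low in muscle genes, 18 members passed (median change 2.33), as did 9.66% of all genes. Without replicate 2, 2 passed, as did 3.15% of all genes. None passed without replicate 3, 4 or 5 of that group, without any library of control antibody or of anti-CXCL10 plus GSK343, or without replicate 1 of anti-CXCL10, and the median was 1.23 without replicate 4. Pvalb had an adjusted p (limma) of 0.00877 without replicate 1 of control antibody plus GSK343 and of 0.121 without replicate 3, and it also missed the threshold with a pseudocount of 0.1 (0.0936) or with only the 2 groups in the fit (0.113). Immune genes moved in the same contrast: 16 of 20 T cell genes and 13 of 19 macrophage genes passed as higher, and 4 of 20 hepatoma genes as lower. T cell genes summed to 219 to 525 FPKM with control antibody plus GSK343 and 137 to 204 with control antibody, macrophage genes to 4415 to 6897 and 2659 to 5498, and hepatoma genes to 4766 to 7030 and 7403 to 9838. No T cell or macrophage gene was listed at 0 in any library, and of the hepatoma genes Apoh was. Their part in the muscle values was not tested.

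Under GSK343, anti-CXCL10 antibody went with a lower level of Pvalb than the control antibody did. Pvalb fell by 3.07 ± 0.79 on the log2 scale, with the 95% interval of the change from -4.74 to -1.41 (limma, adjusted p = 0.0212). That made 1 of 33 members lower and 0 higher, against 6.64% of all tested genes lower and 3.48% higher. The share of members called lower was again below that of all genes and is not read as a result about them. Pvalb was listed at 0 in replicate 1 of anti-CXCL10 plus GSK343. The change was negative for 32 members, with a median of -1.80 against 0.03 over all genes, and 28 members had an unadjusted p under 0.05, against 25.7% of all genes in either direction. Ckm differed by -2.81 ± 1.09 (limma, adjusted p = 0.113), Acta1 by -2.60 ± 1.06 (0.129) and Tnnt3 by -3.03 ± 1.03 (0.0705). Groups overlapped for each of the 33 tested members, whereas they did not overlap for 4.65% of all genes as lower and 4.12% as higher. A second number in the labels restarts between control antibody and anti-CXCL10 libraries. Antibody and that numbering cannot be told apart in this or any other comparison of the 2 antibodies. This comparison and the one above share the 5 libraries of control antibody plus GSK343, so they are not independent. Without replicate 1 of those libraries 25 members passed (12.7% of all genes in either direction), without replicate 2 it was 7 (6.48%), and none passed without replicate 3 or without replicate 1 or 5 of anti-CXCL10 plus GSK343. The median change was -1.20 without replicate 4.

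In the other comparisons no member passed. GSK343 under anti-CXCL10 gave 0 of 33 members and 0% of all tested genes (limma), with 0 members at an unadjusted p under 0.05 (2.91% of all genes) and a median change of -0.38. Groups overlapped for every tested member, against 0.271% of genes higher and 0.125% lower without overlap. Ckm differed by -0.34 ± 1.09 there, with a 95% interval from -2.65 to 1.96, which includes changes as large as several-fold in either direction. When the GSK343 effect under anti-CXCL10 was set against that under control antibody, 0 members passed, against 0.0626% of all genes. An unadjusted p under 0.05 was found for 21 members, all negative, against 12.9% of all genes in either direction and 5.11% as positive. Pvalb had the smallest adjusted p for that difference (-3.79 ± 1.15, limma, adjusted p = 0.177). Without replicate 1 of control antibody plus GSK343, 1 member passed in it, as did 3.31% of all genes. Anti-CXCL10 without GSK343 gave 0 members against 0.0139% of genes, and anti-CXCL10 plus GSK343 against control antibody gave 0 against 0.00695%. In each of these last 2, a single member of 33, Tnnc1, had an unadjusted p under 0.05, against 6.81% and 5.03% of all genes. Relative to control antibody, Tnnc1 differed by -0.47 ± 0.20 with anti-CXCL10 (limma, adjusted p = 0.7).

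Within treatment groups, most members moved together from tumor to tumor. The slope of each gene on Ckm, both as log2(FPKM + 1), was fitted with limma in a model that also held the 4 group means. A slope of 1 means an equal change on the log2 scale, and slopes of low genes are flattened by the added 1. The slope was positive with an adjusted p under 0.05 for 28 of the 32 tested members other than Ckm, and negative for 0, against 0.334% and 0.0556% of 14384 genes. Those genes include the members, and among 14352 non-members the shares were 0.139% and 0.0557%. Members were chosen with earlier results of these data known, and low ones passed the filter through libraries rich in muscle genes. The count is therefore a description and not evidence on its own. The median member slope was 0.56. Acta1 (0.95 ± 0.05), Tnnt3 (0.93 ± 0.04), Tnnc2 (0.91 ± 0.04), Myh4 (0.90 ± 0.05), Atp2a1 (0.89 ± 0.05), Tnni2 (0.89 ± 0.04) and Myl1 (0.85 ± 0.06) had the steepest slopes. The adjusted p of Tnnc2 was 5.06e-10 by limma. These are genes of fast fibers or of all fibers. All 7 thick filament genes, 8 Z-disc genes and 4 calcium genes tested passed, as did 5 of 8 thin filament genes and 4 of 5 energy genes.

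The slow troponins and Eno3 did not pass. Tnnc1 had a slope of 0.03 ± 0.04 (limma, adjusted p = 0.862), Tnni1 of -0.05 ± 0.06 (0.832) and Tnnt1 of -0.05 ± 0.05 (0.796). Eno3 had a slope of 0.16 ± 0.04 (0.134). Des (0.34 ± 0.05) and Tpm2 (0.28 ± 0.04), genes with a floor in every library, had shallow slopes that passed. The label control antibody or anti-CXCL10 coincides with a second number in the labels that restarts between them, so antibody and that numbering cannot be told apart, and slopes were also fitted within each. In the control antibody groups alone 21 members passed, against 0.0348% of non-members, and in the anti-CXCL10 groups alone 19, against 0.0836%. Acta1 had slopes of 0.94 and 0.95, Myh4 of 1.01 and 0.80, and Des of 0.47 and 0.23 in these fits. Without the 2 libraries farthest from the median Ckm level, replicates 3 and 4 of control antibody plus GSK343, 25 members passed, against 0.0836% of non-members, and the median member slope was 0.45. Sln, Mb and Ldb3 passed in neither antibody set alone, nor without those 2 libraries, and Myh2 passed in neither set alone.

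**Figure D4:**
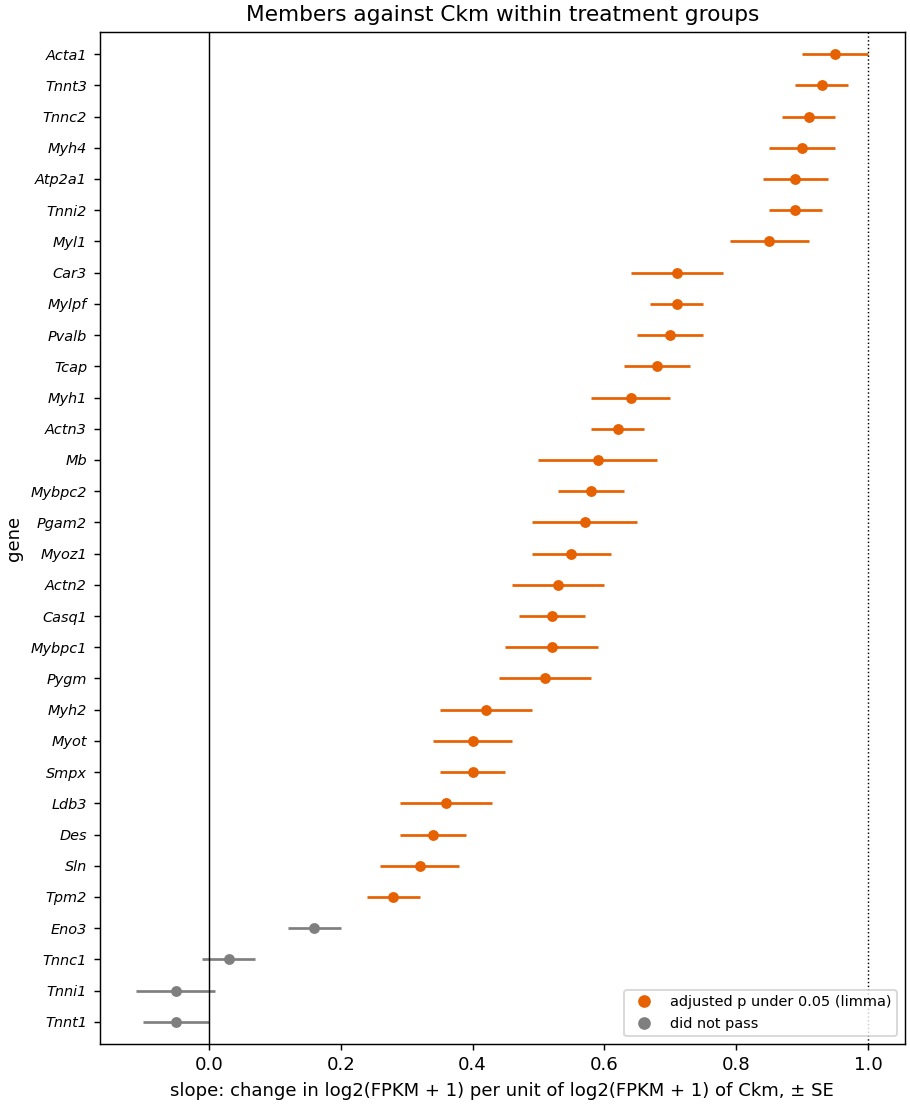
Slope of each of 32 members on Ckm within treatment groups (points, ± SE), in log2(FPKM + 1) per unit of log2(FPKM + 1) of Ckm; orange points passed an adjusted p under 0.05. Slopes run from 0.95 for Acta1 to -0.05 for Tnni1 and Tnnt1, and Eno3, Tnnc1, Tnni1 and Tnnt1 did not pass.

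Few genes outside the members followed Ckm, and many of those that did belong to muscle. Of 14352 non-members, 20 had a positive slope past the threshold (0.139%) and 8 a negative one (0.0557%), with a median slope of -0.00. Among 41 further sarcomere genes listed, 15 had a row, 14 were tested, and 7 passed as positive. Pdlim3, a Z-disc protein, had a slope of 0.37 ± 0.04 (limma, adjusted p = 6.98e-05), Klhl41, a stabilizer of nebulin, 0.40 ± 0.05 (0.000242) and Fhl1, a LIM protein of striated muscle, 0.44 ± 0.06 (0.000654). Of 32 further genes of muscle metabolism 24 had a row, and 5 of 22 tested passed, among them the muscle cytochrome oxidase subunit Cox6a2 (0.46 ± 0.06, limma, adjusted p = 0.000201), the muscle deaminase-family gene Apobec2 (0.45 ± 0.06, 0.00105) and the ADP/ATP carrier Slc25a4 (0.19 ± 0.03, 0.00673). Srl, which encodes sarcalumenin of the calcium store, which is on both the sarcomere list and that of calcium and membrane, passed (0.28 ± 0.06, limma, adjusted p = 0.0363), the only call among 6 tested genes of the second list. Of 32 genes of muscle development and regeneration only 6 had a row, and 0 passed; the regulators Myod1, Myog and Pax7 were not analysed here. Of 12 cardiac genes 2 had a row and neither passed. Low genes of these lists, like low members, passed the filter through libraries rich in muscle genes. Klhl41 and Apobec2 reached 1 FPKM only in replicates 3 and 4 of anti-CXCL10 and replicates 3, 4 and 5 of control antibody plus GSK343. The lists were also chosen with earlier results of these data known, so the calls among muscle genes are descriptions and not evidence on their own.

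Outside all muscle lists, Eef1a2, the translation elongation factor isoform of muscle and neurons, followed Ckm most closely. It had 0.0592, 0.0494, 0.687, 0.763 and 0.095 FPKM with anti-CXCL10 plus GSK343, 0.668, 0.00923, 1.68, 2.87 and 0.0502 with anti-CXCL10, 0.147, 0.803, 4.27, 18.6 and 4.31 with control antibody plus GSK343, and 0.141, 0.18, 0 and 0.698 with control antibody. Its slope was 0.48 ± 0.05 (limma, adjusted p = 1.84e-05), and it passed in the control antibody groups alone (0.00348), in the anti-CXCL10 groups alone (0.00636) and without the 2 farthest libraries (0.000198). Eef1a2 reached 1 FPKM only in replicates 3 and 4 of anti-CXCL10 and replicates 3, 4 and 5 of control antibody plus GSK343. These libraries were the highest in Ckm, and Eef1a2 passed the filter through them, so its slopes are a description and not evidence on their own. The next 9 genes by size of the test statistic were Cd34, Mustn1, Cdh13, Lyz1 and Cd248 with slopes from 0.12 to 0.20, and Zfp7, Ivl, Prodh2 and Anxa9 with slopes from -0.26 to -0.09. Their adjusted p (limma) ran from 0.00346 for Cd34, a surface protein of endothelium and stromal cells, to 0.0415 for Cd248. None of these 9 passed in the control antibody groups alone or in the anti-CXCL10 groups alone, and only Mustn1 passed without the 2 farthest libraries (0.0178).

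Markers of other cell types the tumors could hold mostly did not pass in the slope on Ckm. Of 22 fibroblast and matrix genes 2 passed as positive, Cd34 (0.19 ± 0.03) and Clec3b (0.32 ± 0.07, limma, adjusted p = 0.0482), with a median slope of 0.10. Among the 5 tested nerve sheath genes 1 passed, Cryab (0.21 ± 0.03, limma, adjusted p = 0.00343), a small heat shock protein that is also on the sarcomere list. Of 20 T cell genes 0 passed (median slope 0.07), and 0 passed of 19 macrophage, 15 endothelial, 11 smooth muscle and pericyte, 8 fat cell, 7 mast cell, 5 erythroid, 13 heat shock and 15 immediate early genes. The 20 hepatoma genes had a median slope of -0.10 and 0 passed. All 16 keratinocyte genes had negative slopes with a median of -0.41, and 1 passed, Ivl, the cornified envelope protein involucrin (-0.26 ± 0.05, limma, adjusted p = 0.0197). A shared sign was not particular to this list. Slopes were positive for all 20 T cell and all 7 mast cell genes, for 1 of 20 hepatoma genes and for 7 of 13 heat shock genes. Cd34, Clec3b, Cryab and Ivl passed in neither antibody set alone, nor without the 2 libraries farthest from the median Ckm level. Krt14 of basal keratinocytes ranged from 0.0506 to 205 FPKM, both in libraries of control antibody. The keratinocyte genes summed to 75 to 242 FPKM with anti-CXCL10 plus GSK343, 66.3 to 438 with anti-CXCL10, 52.3 to 590 with control antibody plus GSK343 and 74.2 to 733 with control antibody, and Krt1, Krt15, Krt77, Krt79, Lor, Flg, Krtdap and Lgals7 were each listed at 0 in at least 1 library. The part of skin in the muscle values was not tested.

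**Figure D5:**
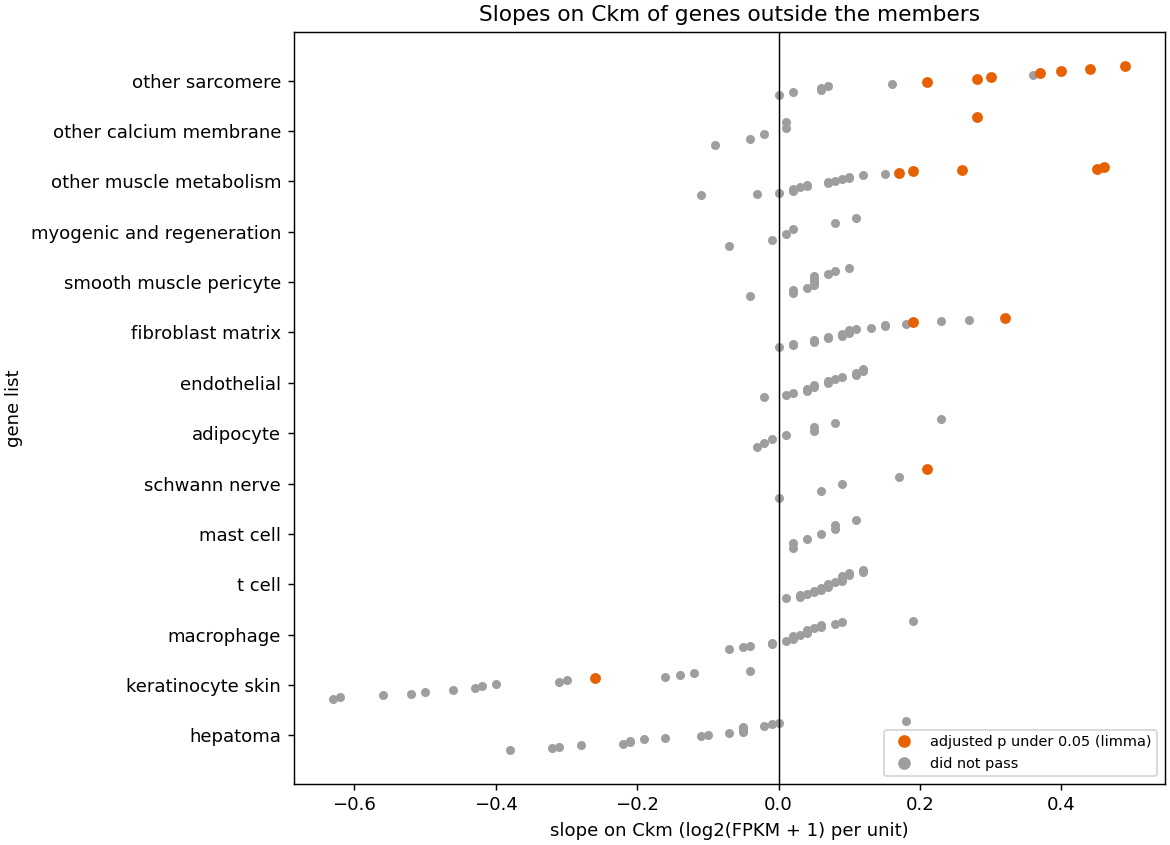
Slopes on Ckm of tested genes outside the members, by list (rows), in log2(FPKM + 1) per unit of log2(FPKM + 1) of Ckm; orange points passed an adjusted p under 0.05. Positive calls sit in the sarcomere and metabolism lists, with Srl, Cd34, Clec3b and Cryab outside them or shared. The 16 keratinocyte genes all lie below 0, and the T cell and mast cell genes all lie above 0.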

How the data were processed

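RNA-seq after poly-A selection, per the series' design text, of 19 tumor libraries in 4 groups was used, grouped by the labels. The deposited values are FPKM per gene, a unit inferred from the values: sums weighted by exon length varied among libraries by 0.79% (coefficient of variation), and plain sums by 4.06%. The tools StringTie 1.3.3b, HTSeq 0.6.0, HISAT2 2.1.0, TopHat2 2.1.0 and Trimmomatic 0.33 and the builds mm10 and GRCm38 are listed, per the submitters' processing notes; their roles and the strand setting are not given in the sources used here. Of 14646 rows, 21 rows of 8 repeated gene IDs were summed, which left 14633 genes, each with 1 FPKM in at least 4 libraries, so the authors' table looks filtered. FPKM summed to 533606 to 629679 per library. Depth is unknown: low values showed no whole-read steps (at most 1.6% of ratios within 0.1% in 171 library pairs), so no counting error can be given. Replicates correlated at 0.942 to 0.977.

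The 14385 genes with 1 FPKM in at least 5 libraries entered limma 3.58.1 under R 4.3.3 on the log2(FPKM + 1) scale, with an intensity trend and robust moderation, in a model of 4 group means. Adjusted p is Benjamini-Hochberg over all tested genes, with a threshold of 0.05, and errors are SE. The slope fit added Ckm as a covariate (14384 genes). Tests were checked on simulated data. Alternatives were a pseudocount of 0.1, no filter, a mean of at least 5 FPKM, median-ratio scaling, quantile normalization, a replicate block, the compared groups alone, Acta1 as index and each library left out. Members and lists were chosen with earlier results of these data known. Values by library are given for the 2 most abundant members of each role, each member past the threshold, the troponin pairs and the myosin heavy chains; from each list up to 3 genes by p are named, and 10 further genes by test statistic. Srl, Cryab, Krt14, Cfd, Car3, Myoz1 and Clec3b were added after their values were seen.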

Additional observations from a re-analysis of the deposited data

Results flagged for a closer look

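In groups of 4 or 5 libraries, a library stood apart from its group on the log scale for 2 of the members' values by Dixon's test, which chance gives for about 1 in 20 groups. Eno3 had 62.3 FPKM in replicate 3 of control antibody, below the other 3 libraries at 73.5 to 75.2 FPKM. Sln had 0.875 FPKM in replicate 1 of control antibody, above the other 3 at 0.652 to 0.687 FPKM. Each of the 35 members was examined in each of the 4 groups, so these 2 flags lie under the rate that chance gives. On the plain FPKM scale replicate 4 of control antibody plus GSK343 stood apart for 26 of 35 members, and on the log scale for 0 of 35. The share over all genes is not given, so the 26 are a description only.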

How the results depend on the processing

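Pvalb kept its sign in both comparisons under every alternative run, whereas the Tnnc1 slope, not called, was -0.09 in the control antibody groups alone, and the median member change of anti-CXCL10 plus GSK343 against control antibody (-0.08) ran from -0.20 to 0.17 with single libraries left out. The count of members higher with GSK343 under control antibody (1) became 0 with a pseudocount of 0.1 or with the compared groups alone, and ran from 0 to 18 with single libraries left out. The count lower with anti-CXCL10 under GSK343 (1) became 3 without the filter and ran from 0 to 25. The count for the difference of the GSK343 effects (0) ran from 0 to 1. Non-members following Ckm numbered 28, and 9 under a stricter filter (mean of 5 FPKM), 5 in the control antibody groups alone, 12 in the anti-CXCL10 groups alone, 12 without the 2 libraries farthest in Ckm, and 13 to 40 with single libraries left out. Leaving out control antibody plus GSK343 library 1 or 4 gave 13 or 17, and leaving out anti-CXCL10 library 1 or 4 gave 18. With Acta1 in place of Ckm they numbered 19, of which 16 were shared. The causes were not tested.

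Same-numbered libraries correlated at -0.20 to 0.32 in their deviations from group means, with means of 0.01 to 0.13 per pair of groups against -0.03 to -0.00 for other numbers, and 2 to 5 of 8 or 10 libraries matched best with their own number. No pair of groups had every correlation over 0.1, so the numbers were not taken as pairs. With the replicate number as a block the counts were 2 for GSK343 under control antibody, 23 for anti-CXCL10 under GSK343, 1 non-member following Ckm (none of the 28), and 13 of 32 members following it. Median-ratio scaling and quantile normalization left the median member change at 1.82 against -0.01 and -0.06 for all genes. Unknown depth limits most the members under 1 FPKM.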

Other observations

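Tnnt2, the cardiac troponin T gene, was more abundant than any slow troponin member, with 25.6 to 49.5 FPKM over the 19 libraries, and its slope on Ckm was -0.01 ± 0.04 (limma, adjusted p = 0.946). Ankrd1, a titin-binding stress protein of striated muscle, had 27.3 to 102 FPKM and a slope of 0.11 ± 0.04 (0.334). Chrnb1, a subunit of the muscle acetylcholine receptor, had 14.2 to 28.1 FPKM and a slope of 0.02 ± 0.03 (0.906). Each was present in all libraries, those lowest in Ckm included. These 3 genes were chosen after their values were seen.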
